A study of Mus musculus with 20 samples.

Results

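A set of 9 genes of chloride handling was followed in the dorsal root ganglia (DRG) of mouse embryos, which hold the cell bodies of sensory neurons with their glia. They were chosen by name, as cation-chloride cotransporter and chloride channel genes that bear on how a sensory neuron responds to GABA: the cotransporters Slc12a2, Slc12a4, Slc12a5 and Slc12a7, the CLC family genes Clcn2, Clcn3 and Clcn6, and the anoctamins Ano1 and Ano3. All 9 were present among the 37620 genes of the expression table, and their symbols matched Ensembl gene identifiers. The embryos were C57Bl6 mice at E18.5, shortly before birth. From each of 10 donors, 5 male (M1, M3, M5, M7 and M8) and 5 female (F3, F7, F8, F9 and F10), ganglia of spinal levels L4-5 (lumbar) and L6-S1 (sacral) each gave 1 RNA sequencing library, so that each sex had 5 libraries at either level. No transgene or treatment is named for any group. The study set lumbar against sacral ganglia because the neurons that serve the pelvic organs lie at the sacral level, and whether these 9 genes differ between the levels, or between the sexes, is the question here.

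The effect of GABA on a neuron depends on the chloride gradient across its membrane. GABA-A receptors are chloride channels, and when chloride inside the cell is high they let chloride out and depolarise the cell. Slc12a2 encodes NKCC1, which carries sodium, potassium and chloride into cells, and sensory neurons are known for keeping their chloride high through it even as adults. Slc12a4, Slc12a5 and Slc12a7 encode the potassium-chloride cotransporters KCC1, KCC2 and KCC4, which carry chloride out, and KCC2 is the extruder of mature central neurons. Clcn2 encodes a chloride channel of the plasma membrane, Clcn3 and Clcn6 encode chloride-proton exchangers of endosomes and related vesicles, Ano1 encodes a calcium-activated chloride channel of nociceptors, and Ano3 encodes a related protein that is better known in DRG for regulating a potassium channel.

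Expression was given in log2 RPKM, in which the reads of a gene are divided by its exon length and a scaled size of the library. Values were therefore set side by side between genes as well as between libraries, the latter as far as the scaling holds. All 20 libraries had the same median, 0.93 log2 RPKM, over their genes with a value, of which there were 21202 to 23768. Library depth ranged from 19606265 to 39678967 reads, of which the 2 mitochondrial ribosomal RNA (rRNA) genes took 17.8% to 61.1%. All 11 sensory neuron markers, among them Tubb3, Prph and Avil, passed the filter, a mean log2 RPKM of at least 0 (that is, 1 RPKM as a geometric mean) in at least 1 group, and their summed RPKM was 599 to 3340 per library, so the labelled tissue carried its defining markers. Marker levels of several cell types moved with spinal level. Summed over 12 markers of Schwann cells and satellite glia, RPKM was 420 to 594 in lumbar and 267 to 436 in sacral libraries with the sacral sum below the lumbar one in 10 of 10 donors, and 6 of the 12 were lower at the threshold of the limma model described with the level comparison (adjusted p up to 0.05). The sum of 10 fibroblast and meningeal markers was 236 to 519 in lumbar and 317 to 687 in sacral libraries and higher in the sacral library of 9 of 10 donors, and 5 of the 10 were higher. The sensory neuron sum was below that of the lumbar library in 9 of 10 donors, with 3 of 11 markers lower. That of 9 markers of large myelinated neurons was 97.7 to 187 in lumbar and 82.6 to 126 in sacral libraries, below the lumbar one in 10 of 10 donors, with 3 markers lower and 1 higher. That of 10 markers of small nociceptive neurons was below it in 9 of 10, with 1 lower and 1 higher. Endothelial markers summed to 24.2 to 48.8 in lumbar and 34.4 to 60.7 in sacral libraries, and cartilage markers to 7.59 to 19.3 and 9.56 to 32.5. Both sums were higher at the sacral level in 9 of 10 donors, with 2 of 5 and 1 of 4 tested markers higher. The endothelial sum was mostly Cdh5, at a geometric mean of 28.4 RPKM against 4.36 for Pecam1. The other 3 tested endothelial markers had differences below 0, and the median of the 5 was -0.004. Of the tested markers of skeletal muscle, erythroid cells and spinal cord 0 were called. For spinal cord only 1 of 6 markers, Slc17a6, passed the filter, at a geometric mean of 52.7 RPKM, so the level comparison rests on it. The other 5, Olig1, Olig2, Mnx1, Pax2 and Lhx1, had geometric means of 0.0083 to 0.085 RPKM. The highest single value among these was 0.86 log2 RPKM, for Pax2. The skeletal muscle sum varied widely between libraries, from 33.0 to 514 in lumbar and 33.7 to 374 in sacral DRG. The part of these shifts in the results given here was not tested, and fewer cells of a type and less RNA per cell cannot be told apart in whole ganglia.

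The 9 genes spanned a wide range of levels in which the importer and Clcn6 were highest and KCC2 lowest. The mean over the 10 donors, with both libraries of a donor averaged, was 3.89 ± 0.31 (SD) log2 RPKM for Slc12a2, 3.82 ± 0.33 for Clcn6, 2.97 ± 0.43 for Clcn3, 2.97 ± 0.53 for Ano3, 1.82 ± 0.28 for Slc12a7, 0.73 ± 0.45 for Clcn2, 0.26 ± 0.33 for Slc12a4, -0.49 ± 0.58 for Ano1 and -1.27 ± 0.46 for Slc12a5. Neighbours in this order were compared by a two-sided exact permutation test that flips the sign of donor differences (10 donors), adjusted over the 8 pairs. Slc12a2 and Clcn6 did not differ beyond their spread (difference 0.07 ± 0.32 SD, exact adjusted p = 0.583), nor did Clcn3 and Ano3 (difference 0.01 ± 0.14 SD, exact adjusted p = 0.910). Each of the other 6 neighbours differed, with exact adjusted p-values of 0.00391 to 0.00521. Slc12a5 stood below Ano1, its nearest neighbour, in 10 of 10 donors. The order holds per exon length only. In reads per library Clcn3, with the longest exons of these, had 1484 to 6145, against 1377 to 4531 for Slc12a2, 835 to 4288 for Clcn6 and 422 to 2958 for Ano3.

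**Figure D1:**
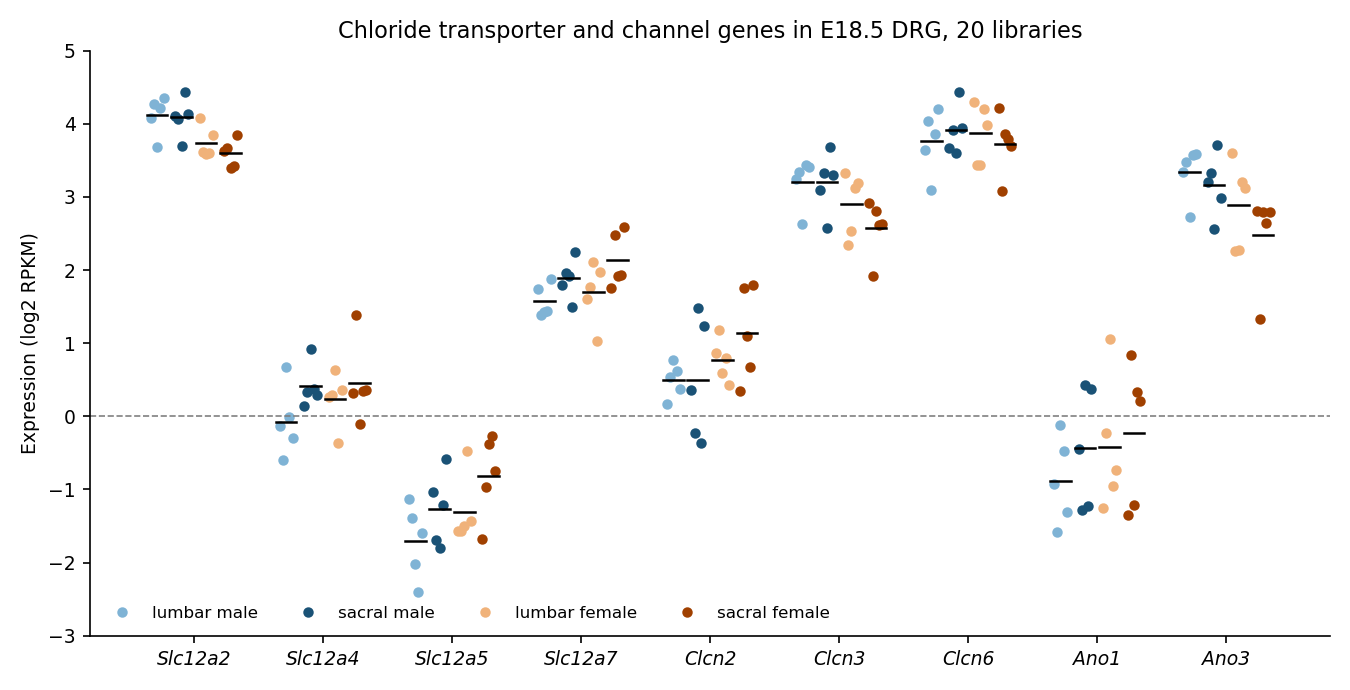
Expression of the 9 genes in each of the 20 libraries, in log2 RPKM on the vertical axis (the dashed line at 0 is 1 RPKM), with 1 point per library coloured by group and a black bar at each group mean of 5 libraries. Slc12a2 and Clcn6 sit highest, Slc12a5 lies below 0 in every library, and the groups of a gene overlap.

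With the 4 groups in 1 limma model and donor as a block, 978 of the 14529 genes tested, 6.73%, differed between sacral and lumbar DRG at the adjusted p threshold of 0.05, and such genes are said to be called. Of the 9 genes, 7 passed the expression filter, and 0 of these 7 were called. At an unadjusted p under 0.05 there were 2 of 7, Slc12a4 and Slc12a7, against 3501 of all 14529 genes (24.1%). Slc12a5 and Ano1 stayed under a mean log2 RPKM of 0 in each of the 4 groups and were therefore compared donor by donor. Alternatives to this model called between 0 and 2 of the 7, and each such call is given beside its gene.

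Slc12a2 (NKCC1; ENSMUSG00000024597, mm9 chr18:58038332-58106475, plus strand) had the highest mean RPKM of the 9, though not beyond that of Clcn6, and 1377 to 4531 reads per library. In lumbar DRG it was 4.08, 4.27, 3.69, 4.22 and 4.35 log2 RPKM in donors M1, M3, M5, M7 and M8, and 4.09, 3.61, 3.59, 3.59 and 3.85 in donors F3, F7, F8, F9 and F10. In sacral DRG of the same donors it was 4.11, 4.07, 3.70, 4.44 and 4.13, and 3.63, 3.68, 3.39, 3.43 and 3.85. The lumbar and sacral values overlapped across most of their range, and the sacral library was the higher in 5 donors and the lower in 5. The mean difference between sacral and lumbar DRG was -0.09 ± 0.09 (SE) on the log2 scale (limma, adjusted p = 0.532), with a 95% interval of -0.27 to 0.09. Of the 7 genes in the model, Slc12a2 had the smallest standard error.

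The means of the 3 potassium-chloride cotransporters among the 9 genes were each above 0 for sacral minus lumbar, but 0 of the 3 were called. Slc12a7 (KCC4; ENSMUSG00000017756, mm9 chr13:73870542-73954191, plus strand), the most abundant of them at 253 to 1032 reads, was 1.74, 1.39, 1.43, 1.44 and 1.87 log2 RPKM in lumbar DRG of the male donors in the order given, and 1.61, 1.77, 2.12, 1.02 and 1.97 in the female donors. In sacral DRG it was 1.79, 1.96, 1.92, 1.50 and 2.25, and 1.76, 2.48, 1.92, 1.93 and 2.59. The levels overlapped as groups, but within donors the sacral library was higher in 9 of 10, with F8 the exception. The difference was 0.37 ± 0.12 (SE; 95% interval 0.13 to 0.62), with an unadjusted p of 0.00465 and an adjusted p of 0.0579 in limma. This lay close to the threshold. The adjusted p in limma was 0.0473 with every library set to the same median over the tested genes only. It was 0.0188 with library weights and 0.0159 without donor F8, and reached 0.312 under other alternatives. The difference kept its sign throughout at 0.32 to 0.45.

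Slc12a4 (KCC1; ENSMUSG00000017765, mm9 chr8:108467490-108489974, minus strand) had 84 to 274 reads. Its lowest, median and highest values were -0.60, 0.13 and 0.67 log2 RPKM over the 10 lumbar libraries and -0.11, 0.34 and 1.38 over the 10 sacral libraries. It was higher in the sacral library of 9 of 10 donors, by only 0.05 in F3 and 0.00 in F10, and lower in F8 by 0.74. The mean difference was 0.35 ± 0.17 (SE; 95% interval 0.0017 to 0.70), and its unadjusted p of 0.0490 became 0.206 after adjustment in limma. The exons of Slc12a4 share 361 bases, 8.49% of their length, with the antisense transcript Gm16156, and since strand-specific counting is not stated for these data, reads there may belong to either.

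Slc12a5 (KCC2; ENSMUSG00000017740, mm9 chr2:164786316-164825228, plus strand) was detected in all 20 libraries at a low level, with 29 to 181 reads. In lumbar DRG it was -1.13, -1.39, -2.02, -2.40 and -1.59 log2 RPKM in the male donors and -1.57, -1.56, -1.50, -0.47 and -1.43 in the female donors. In sacral DRG it was -1.04, -1.69, -1.79, -1.21 and -0.58, and -1.68, -0.96, -0.38, -0.27 and -0.75. The 4 highest values were those of both libraries of F9 and of the sacral libraries of M8 and F8, and the groups overlapped. The sacral library was higher in 8 of 10 donors, with M3 and F3 the exceptions, and the mean difference was 0.47 ± 0.53 (SD). The same exact permutation test, applied to Slc12a5 and Ano1 only, gave an unadjusted p = 0.0273, where the smallest it can give is 0.00195. In the limma model without the expression filter the difference had an adjusted p of 0.303 over all 29049 genes, so it was not called. Its exons share 188 bases with the transcript Gm11459 on the same strand.

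**Figure D2:**
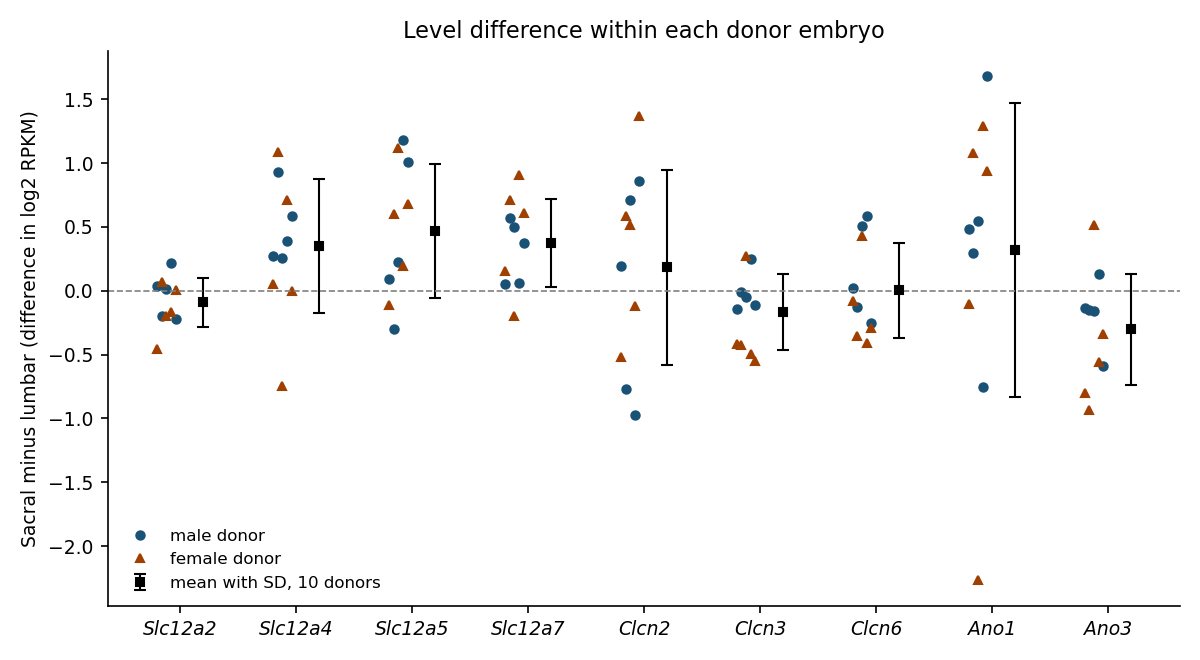
Sacral minus lumbar difference in log2 RPKM within each donor embryo for the 9 genes, with circles for the 5 male and triangles for the 5 female donors and a black square with bars for the mean and SD over 10 donors. Slc12a7 and Slc12a4 lie above 0 in 9 of 10 donors and Slc12a5 in 8 of 10, Slc12a2 is closely spread around 0, and Ano1 is spread most widely.

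The balance of the importer against the extruders was described as the difference of their log2 RPKM within a library. Slc12a2 exceeded Slc12a5 by 5.44 ± 0.67 (SD) in the 10 lumbar libraries, a ratio of 43.4, and by 4.88 ± 0.73 in the 10 sacral libraries, a ratio of 29.5. Over single libraries the ratio ranged from 13.0 in the sacral library of F9 to 98.4 in the lumbar library of M7. The difference was smaller in the sacral than in the lumbar library of 9 of 10 donors, by 0.56 ± 0.48 (SD) on average, and M3 was the exception. No p is given for this quantity, since both genes were chosen with earlier results known and most of the shift is that of Slc12a5 given above. Slc12a2 exceeded Slc12a7 by a ratio of 4.92 in lumbar and 3.56 in sacral libraries, and Slc12a4 by ratios of 14.4 and 10.6. In each of the 20 libraries Slc12a2 was thus above each of the 3 extruders per length, and the nearest approach was that of Slc12a7 in the sacral library of F7, at a ratio of 2.30.

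**Figure D3:**
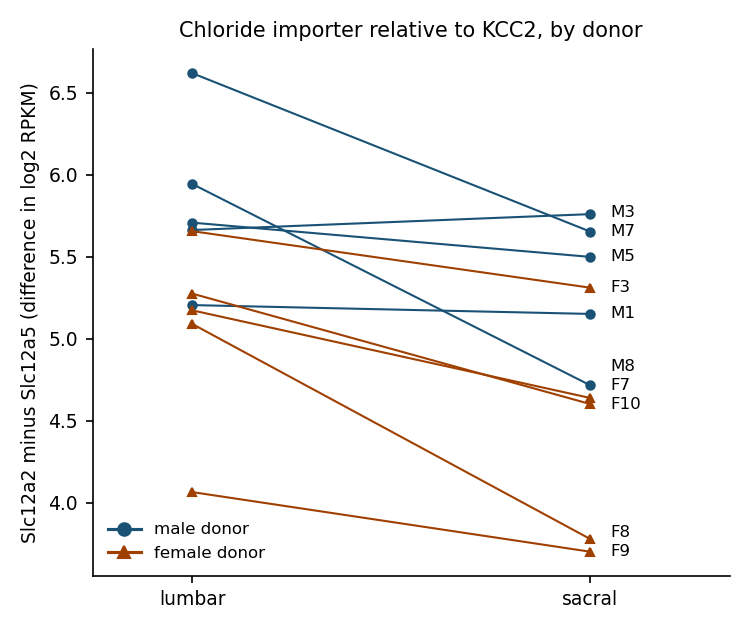
Slc12a2 minus Slc12a5 in log2 RPKM in the lumbar and sacral library of each donor, joined by a line, with male donors as circles and female donors as triangles. The line falls from lumbar to sacral in 9 of 10 donors and rises slightly in M3, and the lowest values, 4.06 and 3.70, are both from F9.

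Among the CLC genes, Clcn6 (ENSMUSG00000029016, mm9 chr4:147378368-147412930, minus strand), a late endosomal exchanger, was nearly as abundant as Slc12a2. Its lowest, median and highest values were 3.10, 3.92 and 4.30 log2 RPKM in lumbar and 3.08, 3.83 and 4.44 in sacral libraries. The levels overlapped almost wholly, and 4 donors were higher and 6 lower in the sacral library. The mean difference was 0.0024 ± 0.13 (SE; limma, adjusted p = 0.994), with a 95% interval of -0.27 to 0.27, and its sign changed between alternatives.

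Clcn3 (ENSMUSG00000004319, mm9 chr8:63389186-63462097, minus strand), an endosomal exchanger, was 3.24, 3.34, 2.63, 3.44 and 3.40 log2 RPKM in lumbar DRG of the male donors and 3.33, 2.34, 2.54, 3.12 and 3.19 in the female donors. In sacral DRG it was 3.10, 3.33, 2.58, 3.69 and 3.30, and 2.92, 1.91, 2.81, 2.62 and 2.64. M5 was the lowest male and F7 the lowest female donor at both levels, and the levels overlapped. Sacral values were below lumbar ones in 8 of 10 donors, the exceptions being M7 and F8, and the mean difference was -0.17 ± 0.13 (SE; 95% interval -0.43 to 0.09; limma, adjusted p = 0.423).

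Clcn2 (ENSMUSG00000022843, mm9 chr16:20703037-20717819, minus strand), the plasma membrane channel, had 129 to 519 reads. Its lowest, median and highest values were 0.17, 0.60 and 1.18 log2 RPKM in lumbar and -0.36, 0.89 and 1.80 in sacral libraries, so the sacral values enclosed the lumbar ones. It was higher in the sacral library of 6 donors and lower in 4, and the mean difference was 0.18 ± 0.20 (SE; 95% interval -0.24 to 0.61; limma, adjusted p = 0.603). The exons of Clcn2 share 82 bases with Polr2h and 85 with Fam131a, both on the other strand.

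Of the anoctamins, Ano3 (ENSMUSG00000074968, mm9 chr2:110495358-110791080, minus strand) had 422 to 2958 reads. In lumbar DRG it was 3.34, 3.48, 2.72, 3.57 and 3.58 log2 RPKM in the male donors and 3.61, 2.27, 2.28, 3.21 and 3.13 in the female donors. In sacral DRG it was 3.20, 3.33, 2.56, 3.70 and 2.99, and 2.81, 1.33, 2.79, 2.65 and 2.79. The lowest value by far was that of the sacral library of F7, and the levels overlapped. The sacral value of Ano3 was the lower in 8 of 10 donors, the exceptions again M7 and F8, and the mean difference was -0.30 ± 0.16 (SE; 95% interval -0.65 to 0.04), with an adjusted p of 0.265 in limma. With library weights the adjusted p was 0.0478, and over all alternatives the difference stayed between -0.42 and -0.23.

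Ano1 (ENSMUSG00000031075, mm9 chr7:151774454-151937879, minus strand), the calcium-activated channel, had 52 to 447 reads and the widest spread of the 9 genes, 6.21-fold between its lowest and highest library. Its lowest, median and highest values were -1.58, -0.83 and 1.06 log2 RPKM in lumbar and -1.35, -0.11 and 0.84 in sacral libraries, and these overlapped. Donors went both ways: sacral minus lumbar was -2.27 in F8, the donor with the highest lumbar value, and 1.68 in M8. It was higher in the sacral than in the lumbar library of 7 of 10 donors, with a mean difference of 0.32 ± 1.15 (SD; unadjusted p = 0.400 in the exact permutation test), and its adjusted p in limma without the filter was 0.667.

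Clcn3 and Ano3 followed each other closely from library to library, with Pearson's r = 0.96 over the 20 libraries and 0.98 over the 10 donor means, the highest of the 36 pairs of the 9 genes. These values are a description, since the libraries share donors and a common scaling. Their RefSeq promoter windows (assembly GRCm38.p6, 250 bases before and 50 after the annotated start) are printed here to show how they differ, each at the most upstream start and on the minus strand, with CG dinucleotides in capitals. The window of Clcn3 is chr8:60983262-60983561 and that of Ano3 is chr2:110950195-110950494.
Clcn3: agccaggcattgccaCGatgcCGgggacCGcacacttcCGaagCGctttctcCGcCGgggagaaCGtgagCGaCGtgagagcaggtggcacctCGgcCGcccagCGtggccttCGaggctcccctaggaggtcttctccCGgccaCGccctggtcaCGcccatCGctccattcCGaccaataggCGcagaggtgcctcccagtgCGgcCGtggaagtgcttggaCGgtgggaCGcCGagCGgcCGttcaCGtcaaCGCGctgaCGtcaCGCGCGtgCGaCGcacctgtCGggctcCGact
Ano3: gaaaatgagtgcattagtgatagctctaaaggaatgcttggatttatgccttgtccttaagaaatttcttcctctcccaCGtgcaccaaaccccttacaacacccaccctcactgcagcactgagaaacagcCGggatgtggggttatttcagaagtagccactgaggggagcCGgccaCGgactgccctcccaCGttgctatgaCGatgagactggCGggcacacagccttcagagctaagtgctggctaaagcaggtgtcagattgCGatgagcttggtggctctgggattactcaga
RefSeq holds a second, downstream start for each gene, whose window has 8 CG dinucleotides for Clcn3 and 4 for Ano3 and holds neither of the motifs named next. The printed window of Clcn3 held 38 CG dinucleotides and that of Ano3 held 8, and 95.6% and 54.2% of the 32851 RefSeq windows of this length held as many or fewer. The cAMP response motif TGACGTCA, which reads the same on both strands, was found in the printed Clcn3 window, not in that of Ano3, and in 1.79% of all windows. The GC box GGGCGG, on either strand, was found in the printed Clcn3 window and not in that of Ano3, against 35.7% of all windows. Windows were found for 8 of the 9 genes.

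The mitochondrial rRNA share, a feature of the library, ranged from 20.49% to 61.1% over the lumbar and from 17.8% to 49.5% over the sacral libraries. The lumbar libraries fell apart into 7 with shares of 20.49% to 30.4% and 3, of donors F8, F7 and M5, with 43.3% to 61.1%, so relations to the share are given over the 7 lumbar and the 10 sacral libraries, 18 relations in all for the 9 genes. By Pearson's r, 0 of the 18 passed on adjustment over these 18. By Spearman's rho 4 did, those of Ano1 at both levels and of Clcn3 and Ano3 in sacral DRG. In sacral libraries Ano1 had r = 0.77 (permutation p = 0.0125, adjusted 0.112) and a rho of 0.87 (permutation p = 0.00238, adjusted 0.0331), and leaving out the 2 libraries farthest from the median share, F3 and M3, gave an r of 0.62. Among the 7 lumbar libraries it had r = 0.85 (exact permutation p = 0.0189, adjusted 0.113) and a rho of 0.93 (exact permutation p = 0.00675, adjusted 0.0331), with an r of 0.60 without the pair farthest from the median, M7 and F10. Clcn3, Clcn6 and Ano3 were negative in sacral libraries, with r of -0.66, -0.62 and -0.62 (adjusted permutation p = 0.149 for each) and rho of -0.81, -0.70 and -0.82 (adjusted permutation p = 0.0331, 0.0922 and 0.0331). Their r was -0.75, -0.56 and -0.72 without F3 and M3. Among the 7 lumbar libraries the r was -0.04 for Clcn3 (exact permutation p = 0.940), -0.70 for Clcn6 (exact permutation p = 0.0857) and -0.32 for Ano3 (exact permutation p = 0.453). Clcn2 had r = 0.78 in sacral libraries (adjusted permutation p = 0.112) and a rho of 0.76 (adjusted permutation p = 0.0545). These calls were not stable when single donors were left out. Without M3, M5, F7, F9 or F10 the number that passed by rho was 0, and without each other donor 1 to 4. Leaving out a donor also leaves fewer libraries, and its influence was not told apart from that.

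**Figure D4:**
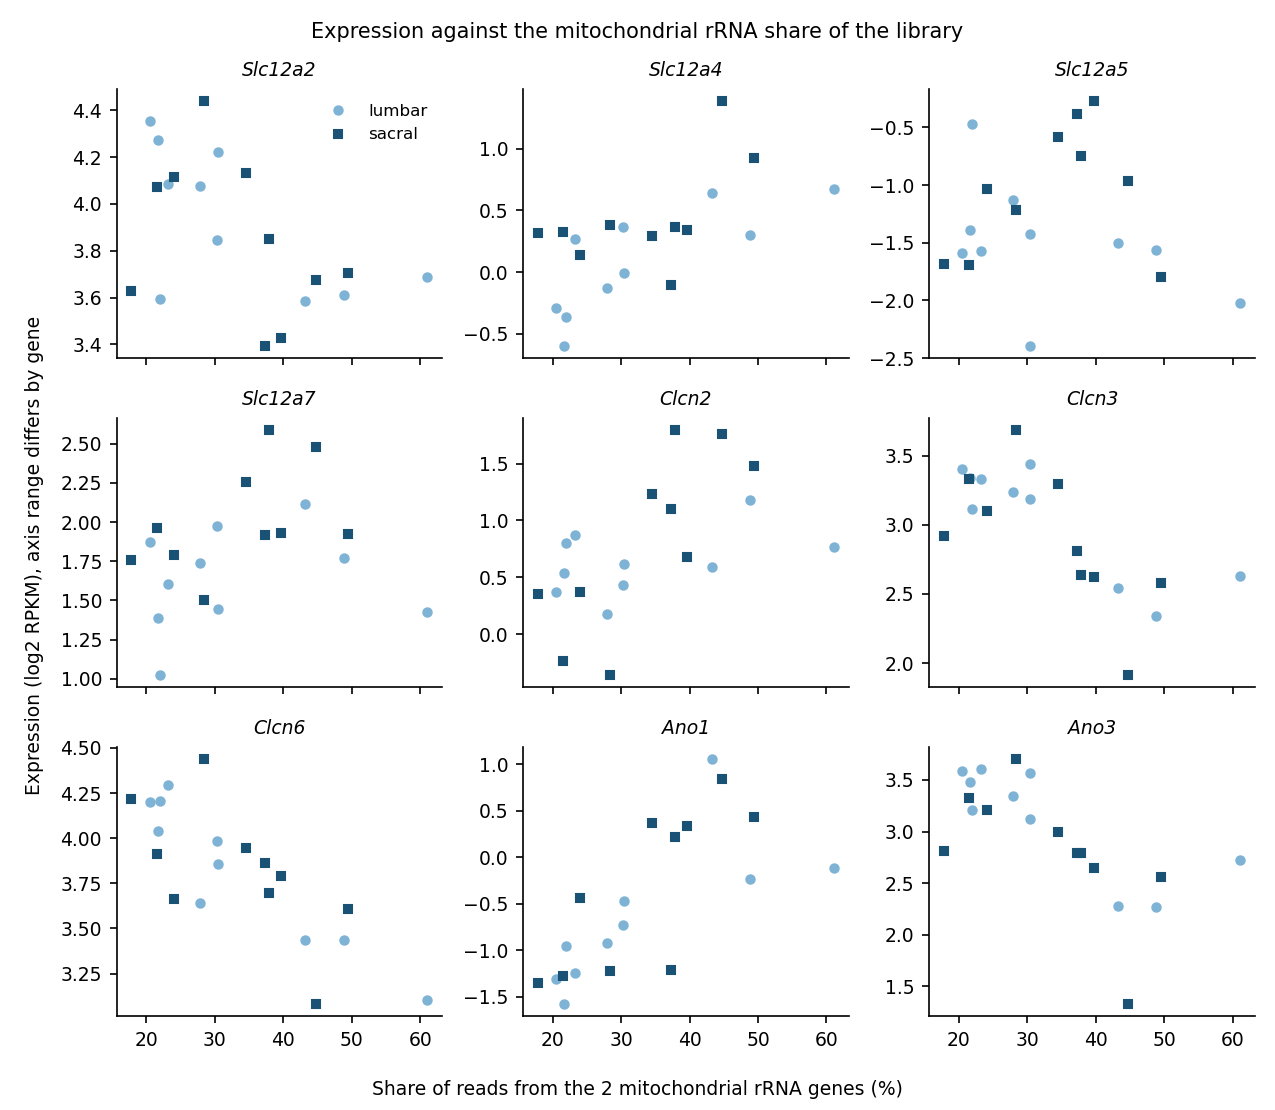
Expression of each of the 9 genes in log2 RPKM (vertical axis, with a range of its own in each panel) against the percentage of reads from the 2 mitochondrial rRNA genes (horizontal axis), with light circles for the 10 lumbar and dark squares for the 10 sacral libraries. Ano1 lies higher and Clcn6, Clcn3 and Ano3 lie lower in libraries with a larger share, and 3 lumbar libraries stand apart above 43%. Among the other 7 lumbar libraries Pearson's r was only -0.04 for Clcn3 and -0.32 for Ano3.

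The level differences were also fitted with the share of mitochondrial rRNA as a covariate. In that fit the difference between sacral and lumbar DRG was 0.37 ± 0.13 (SE) for Slc12a7 (limma, adjusted p = 0.0831), -0.28 ± 0.14 for Ano3 (adjusted p = 0.199) and -0.15 ± 0.10 for Clcn3 (adjusted p = 0.337), and 0 of the 7 genes were called.

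Females were set against males at each level. In the sample titles the male and the female libraries carry numbers from separate runs, an extra digit in the lumbar title of M3 aside. What the numbers stand for is not stated, and a difference between the runs cannot be told apart from sex. In lumbar DRG, 48 of 14529 genes (0.33%) differed between females and males in limma, and in sacral DRG 147 (1.01%). Of the 7 genes, 0 were among them at either level. At an unadjusted p under 0.05 there were 1 of 7 in lumbar DRG, against 8.28% of all genes, and 3 of 7 in sacral DRG, against 15.5% of all genes.

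Slc12a2 was lower in females at both levels on average. In sacral DRG the means were 4.09 ± 0.26 (SD) log2 RPKM in males and 3.60 ± 0.19 in females, and 4 of 5 female values lay below all 5 male values. The difference, female minus male, was -0.50 ± 0.15 (SE; 95% interval -0.81 to -0.19), with an unadjusted p of 0.00322 and an adjusted p of 0.113 in limma. In lumbar DRG the means were 4.12 ± 0.26 and 3.74 ± 0.22, 3 of 5 female values lay below all male values, and the difference was -0.38 ± 0.15 (95% interval -0.69 to -0.07; limma, unadjusted p = 0.0191, adjusted p = 0.471). Both levels come from the same 10 embryos and are not independent. The sacral difference was called under 4 alternatives, with the mitochondrial rRNA share as a covariate, where it was -0.45 ± 0.12 (limma, adjusted p = 0.0375), with library weights, without donor M5, and without M5 and F7. In these fits the number of all genes called between the sexes in sacral DRG was 705, 751, 444 and 331, against 147 in the model used here.

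The other 2 genes with an unadjusted p under 0.05 in sacral DRG were Clcn3 and Ano3. Clcn3 averaged 3.20 ± 0.41 (SD) log2 RPKM in males and 2.58 ± 0.39 in females, a difference of -0.62 ± 0.22 (SE; 95% interval -1.07 to -0.16; limma, unadjusted p = 0.0102, adjusted p = 0.180). It was called with the mitochondrial rRNA share as a covariate, at -0.52 ± 0.15 (limma, adjusted p = 0.0472), with library weights and without M5, 3 of the fits with more calls over all genes. Ano3 averaged 3.16 ± 0.42 in males and 2.47 ± 0.64 in females, a difference of -0.68 ± 0.29 (95% interval -1.28 to -0.09; limma, unadjusted p = 0.0269, adjusted p = 0.266). With the mitochondrial rRNA share as a covariate the difference of Ano3 was -0.57 ± 0.21 (limma, adjusted p = 0.119), not called. For both genes the male and female values overlapped, and the lowest female value was that of F7. The share in sacral libraries was 24.1%, 21.6%, 49.5%, 28.4% and 34.5% in M1, M3, M5, M7 and M8. It was 17.8%, 44.7%, 37.3%, 39.7% and 37.9% in F3, F7, F8, F9 and F10.

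Whether the level difference itself depended on sex was tested as an interaction. No gene of the 14529 passed in limma (0.0%), 470 had an unadjusted p under 0.05, and 0 of the 7 genes were among those. Slc12a7 was higher at the sacral level in 5 of 5 male and 4 of 5 female donors, and Slc12a5 in 4 of 5 of each sex. The widest 95% interval of the interaction among the 7 was that of Clcn2, -0.49 to 1.21, and the narrowest that of Slc12a2, -0.47 to 0.24.

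Other genes of chloride transport were taken from lists by family. Of their 50 identifiers, which stand for 49 genes since Wnk1 has 2, 32 were tested and 1 was called, 3.13% against 6.73% of all genes, a share near the background. It was Stk39, the kinase SPAK that phosphorylates NKCC1 and the KCCs. Stk39 averaged 3.78 log2 RPKM in lumbar and 3.39 in sacral DRG, was higher at the sacral level in only 1 of 10 donors, and differed by -0.39 ± 0.11 (SE; limma, adjusted p = 0.0425). This call lay close to the threshold, and alternatives to the model are not given for Stk39. Of the other lists, 0 were called among 1 further tested gene of the cotransporter family (Slc12a9), 5 further genes of the CLC family and its partner Ostm1, 4 anoctamins, 12 volume-regulated and other anion channels and 4 chloride-bicarbonate exchangers. Of 11 chloride channel genes that the study had put in a functional set, which include Clcn2, Clcn3, Clcn6 and Ano1, 10 were tested and 0 were called, and the median difference was -0.12, beside -0.05 over all genes tested.

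Calls were also made among the receptor subunits through which GABA and glycine open chloride channels. Of 24 subunit genes 11 were tested and 5 were called, 45.5% against 6.73% of all genes. Gabra3, an alpha subunit of the GABA-A receptor, was higher in sacral DRG, at 2.90 against 2.18 log2 RPKM, a difference of 0.73 ± 0.19 (SE; limma, adjusted p = 0.0258). Lower in sacral DRG were the gamma subunit Gabrg1, at 0.23 against 1.97 (difference -1.74 ± 0.15, limma adjusted p = 8.61e-07), and the alpha subunits Gabra2 (-0.70 ± 0.13, adjusted p = 0.00333) and Gabra5 (-0.63 ± 0.16, adjusted p = 0.0256). The glycine receptor beta subunit Glrb was lower as well (-0.56 ± 0.13, adjusted p = 0.0176). For Gabrg1 and Glrb the sacral value lay below the lumbar one in 10 of 10 donors. The difference between receptor and transporter genes in the number called was not tested, and alternatives to the model are not given for the subunits.

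**Figure D5:**
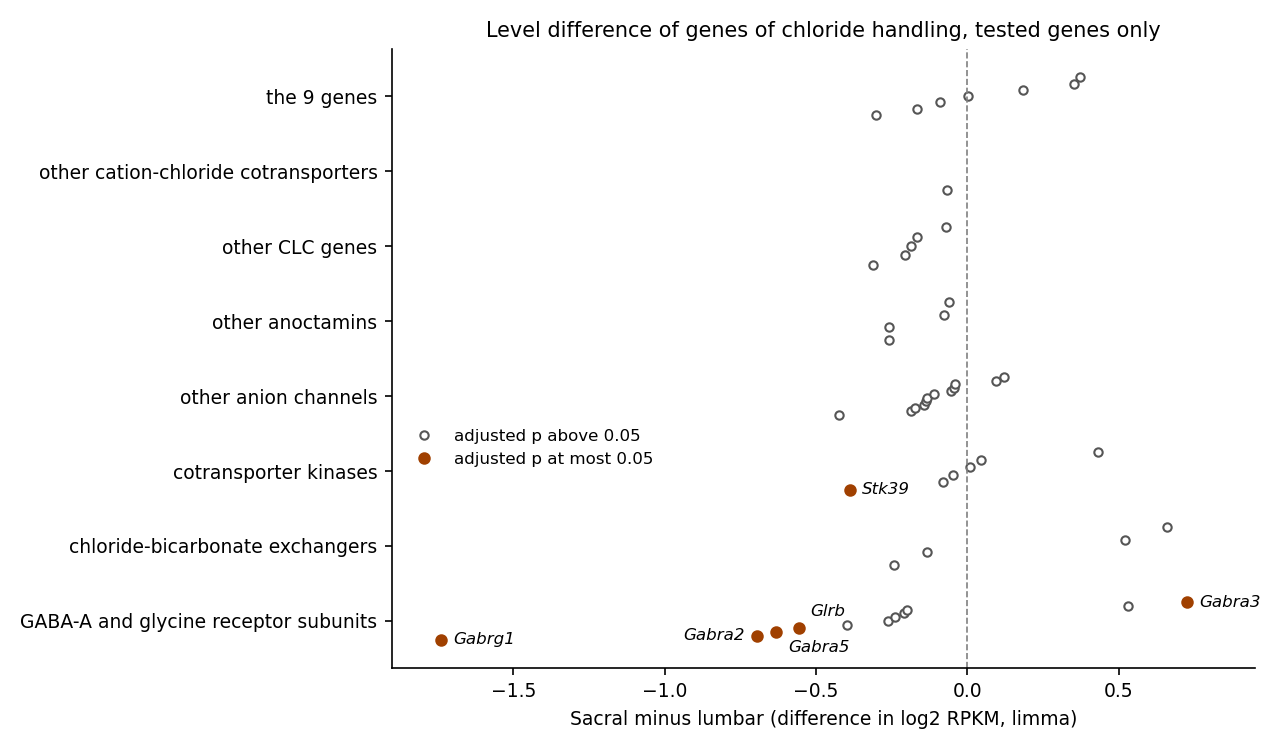
Sacral minus lumbar difference in log2 RPKM from limma (horizontal axis) for each tested gene of 8 lists of chloride handling (vertical axis), with filled points for an adjusted p of at most 0.05. The filled points are Stk39 among the kinases and 5 receptor subunits, of which Gabrg1 lies farthest from 0 at -1.74, and all 7 tested genes of the list of 9 are open.

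Genes whose values were most like those of Slc12a2 over the 20 libraries, among 12140 tested protein-coding genes, were Slmap (Pearson's r = 0.91), Lnpep (r = 0.91) and Vps13a (r = 0.91). Those most like Slc12a5 were Celf5 (r = 0.70), Alox5ap (r = 0.69) and Ehd1 (r = 0.64). These are descriptions over libraries that share donors.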

How the data were processed

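Groups, sexes and donor numbers came from the sample labels. The authors aligned reads to mm9 with Subread, counted uniquely mapped reads per Ensembl gene with featureCounts, scaled them with edgeR (TMM) and limma (voom), and deposited log2 RPKM values. Tools named in the submitters' processing notes include Subread 1.20.6, edgeR 3.12.1 and limma 3.26.9. With GENCODE M1 gene lengths, 98.27% of values were within 0.05 of a whole read, and depth was recovered from these reads. The log2 RPKM values had the same median, 0.93, in all 20 libraries. A blank was set to 0.5 reads. Counting intervals are not given for replicated values.

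All genes with a mean log2 RPKM of at least 0 (1 RPKM) in at least 1 group were tested with limma 3.58.1 (R 4.3.3, statmod 1.5.0), with a mean per group, donor as a replicate block (duplicateCorrelation, consensus correlation 0.34) and eBayes with a trend. Tests were two-sided, with Benjamini-Hochberg adjustment over the 14529 genes and a threshold of 0.05. Pairing came from the labels, since both libraries of a number come from the same embryo. The correlation of their deviations from the group means ranged from -0.17 (M8) to 0.68 (M5). Genes under the filter and neighbours in level were compared by exact permutation tests (sign flips of donor differences), and relations to the mitochondrial rRNA share by permutation tests with 100000 resamples. The limma model was tested on simulated data for the level comparison only. Replicates are separate embryos.

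The 9 genes and the lists were chosen with earlier results of these data known. The 9 are named whatever their values, genes of other lists where called between levels, and for Slc12a2 and Slc12a5 the 3 most correlated genes. Other genes were named after their values were seen. Wnk3 was not analysed here, and both identifiers of Wnk1 were kept. One further gene of these lists is not reported here. Protein sequences and the Slc12a2 promoter are not shown. Alternatives were the model without the block or with donor as a fixed term, other filters and blanks, other library scalings, the mitochondrial rRNA share as a covariate, library weights, no trend, voom on recovered reads, and leaving out donors. The fit without M5 and F7 was added after the data were seen, as was the restriction of relations to the mitochondrial rRNA share to 7 lumbar libraries.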

Additional observations from a re-analysis of the deposited data

Results flagged for a closer look

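Of 36 combinations of gene and group with 5 libraries each, 4 held a library that stood apart by Dixon's test at the 95% level, which chance alone gives in about 1 of 20 groups. Slc12a5 in lumbar female DRG was -0.47 log2 RPKM in donor F9, against -1.57 to -1.43 in the other 4 donors. Clcn3 in lumbar male DRG was 2.63 in donor M5, against 3.24 to 3.44 in the others, and Ano3 in the same library was 2.72, against 3.34 to 3.58. Ano3 in sacral female DRG was 1.33 in donor F7, against 2.65 to 2.81 in the others. The mitochondrial rRNA share was 61.1% in the lumbar library of M5, the highest of the 20, and 44.7% in the sacral library of F7. It was 21.97% in the lumbar library of F9.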

How the results depend on the processing

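Without the replicate block 0 of the 7 tested genes passed in each comparison, as with it, while the number of all genes called between levels fell from 978 to 154. With donor as a fixed term it was 792, without a filter 509, with voom 805, with the mitochondrial rRNA covariate 1295, with library weights 2998, without M5 and F7 265, and without single donors 404 to 1608 (lowest without F10, highest without F8). Of the 7 genes, 1 was called between levels with a common median over the tested genes (Slc12a7). With library weights it was 2 (Slc12a7 and Ano3), and without single donors 0 to 1 (Slc12a7 without F8). Between the sexes in sacral DRG, 2 were called with the mitochondrial rRNA covariate and 2 with library weights (Slc12a2 and Clcn3 in both), 1 without M5 and F7 (Slc12a2) and 0 to 2 without single donors (Slc12a2 and Clcn3 without M5). Over all genes the calls between the sexes in sacral DRG rose from 147 to 705 with that covariate, 751 with library weights, 331 without M5 and F7 and 444 without M5. Other alternatives called 0 of them in these 2 comparisons, and all alternatives 0 in lumbar DRG and in the interaction. The cause was not tested. The level difference of Clcn6 turned negative with library weights (-0.097), without M5 and F7 (-0.016) and without single donors M5, M7, F3 or F8, with a range of -0.069 to 0.052 over single donors left out. Of the 2 genes under the filter, 0 passed when adjusted over these 2 tests, and 0 to 1 without single donors (Slc12a5, at 0.55 without M3 and 0.53 without F3). Of 18 relations to the mitochondrial rRNA share by Pearson's r, taken over all 10 libraries of each level, 7 passed, 5 of them lumbar (Slc12a4, Clcn3, Clcn6, Ano1 and Ano3), where 3 libraries stand apart, and 2 sacral (Clcn2 and Ano1). Without single donors it was 1 to 7 (1 without M3 or M8, 2 without F7, 4 without F8). Over the 10 sacral and 7 lumbar libraries it was 0, and 0 to 1 without single donors (1 without F8). Slc12a2 relative to Slc12a5 differed between levels by -0.63 to -0.48 without single donors, and 6 of 8 neighbours in level differed each time. Slc12a5 rests on as few as 29 reads and Ano1 on 52.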
